A study of Danio rerio with 6 samples.

Results

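Neurexins and neuroligins are adhesion proteins that face each other across the synapse. Of 10 such genes chosen by name in the deposited count table of 32520 genes, the 8 described here are nrxn2a, nrxn2b, nrxn3a, nrxn3b, nlgn1, nlgn2a, nlgn2b and nlgn3a, 4 neurexins and 4 neuroligins. They were chosen by gene family, with earlier results of these data known, and all 8 passed the filter on low counts. The libraries are described as coming from heads of zebrafish larvae at 3 days post fertilization. The mutant larvae were homozygous for y712, an allele of srrm4, which encodes a regulator that promotes the inclusion of very short neuronal exons, and the others were their wild-type siblings. Each genotype had 3 libraries, numbered 1 to 3, made from polyadenylated RNA with a stranded kit. The number of heads in a library is not given in the labels, so the tests measure the spread between these libraries, part of which may be technical.

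Neurexins sit mainly in the presynaptic membrane, where they organize release sites, and a single neurexin gene gives long alpha and short beta forms from separate promoters with extensive alternative splicing. Neuroligins sit in the postsynaptic membrane, bind neurexins through an esterase-like extracellular domain and recruit receptor scaffolds. In mammals neuroligin-1 is found mainly at excitatory synapses, neuroligin-2 mainly at inhibitory ones and neuroligin-3 at both kinds. Zebrafish keep duplicated copies of most of these genes, marked a and b. Neurexin and neuroligin transcripts are known targets of regulated splicing in neurons. Counts per gene add up all forms, so the use of alpha or beta promoters and of alternative exons was not measured.

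Total counts ran from 52510621 to 98353600 in mutant libraries and from 75932582 to 101032166 in wild-type libraries. Levels are given as CPM, counts scaled to library size with TMM factors, and because they are not divided by transcript length they were compared between libraries and not between genes. The smallest member count, 238 for nlgn1 in mutant replicate 1, has a 95% exact Poisson interval of 209 to 270, which covers counting error only. The mutated gene srrm4 measured 18.7, 58.7 and 57.9 CPM in mutant replicates 1, 2 and 3, against 14.6, 53.6 and 55.1 CPM in the wild-type replicates, so its level gives no check of the genotype labels. Both replicate 1 libraries stood apart from the other 4, and this bears on every level below. The 20 neuronal markers were present in all 6 libraries, and their summed level was 2356 CPM in mutant replicate 1 and 2393 CPM in wild-type replicate 1, against 4467 to 4994 CPM in the other libraries. The summed level of 23 posterior hox genes was 119.6 and 134.5 CPM in the mutant and wild-type replicate 1 libraries and lay between 14.57 and 21.81 CPM elsewhere. Skeletal muscle genes, 18 names in 19 rows, summed to 81240 and 80880 CPM in those replicate 1 libraries and to 15080 to 25900 CPM elsewhere. Against the mean of replicates 2 and 3, 14 muscle rows were higher in replicate 1 in both genotypes and 4 were lower in both. No posterior hox or muscle gene on these lists was at 0 in every library, and 4 of the hox genes were at 0 in at least 1. Posterior hox genes mark the trunk and tail, while skeletal muscle is also present in the head, and the part of either in the levels below was not tested. The word heads follows the description of the samples, and whether the replicate 1 libraries held head tissue alone was not tested.

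None of the 8 neurexin and neuroligin genes passed the test between mutant and wild-type heads. In edgeR's quasi-likelihood test with genotype as the only term, an adjusted p under 0.05 was reached by 0% of the 24765 genes tested, and every member had an adjusted p of 1. An unadjusted p under 0.05 was reached by 0.283% of all tested genes (70) and by 0 of the 8 members. The mutant and wild-type libraries overlapped in level for all 8 members, while 2.04% of all tested genes showed no overlap. The members' log2 fold changes of mutant over wild-type lay between -0.14 and 0.11, with a median of -0.015, against a median of 0.00041 over all tested genes. The summed level of the 4 neurexins was 136.6, 220.2 and 194.8 CPM in mutant replicates 1, 2 and 3, against 146.1, 184.7 and 232.7 CPM in the wild-type replicates. That of the 4 neuroligins was 60.98, 108.3 and 98.63 CPM in the mutant, against 58.89, 95.64 and 108.9 CPM in wild-type. For both sums the mutant library was the higher of pair 2 and the lower of pair 3. In bulk RNA, fewer neurons in a library and less of a transcript per neuron cannot be told apart.

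**Figure D1:**
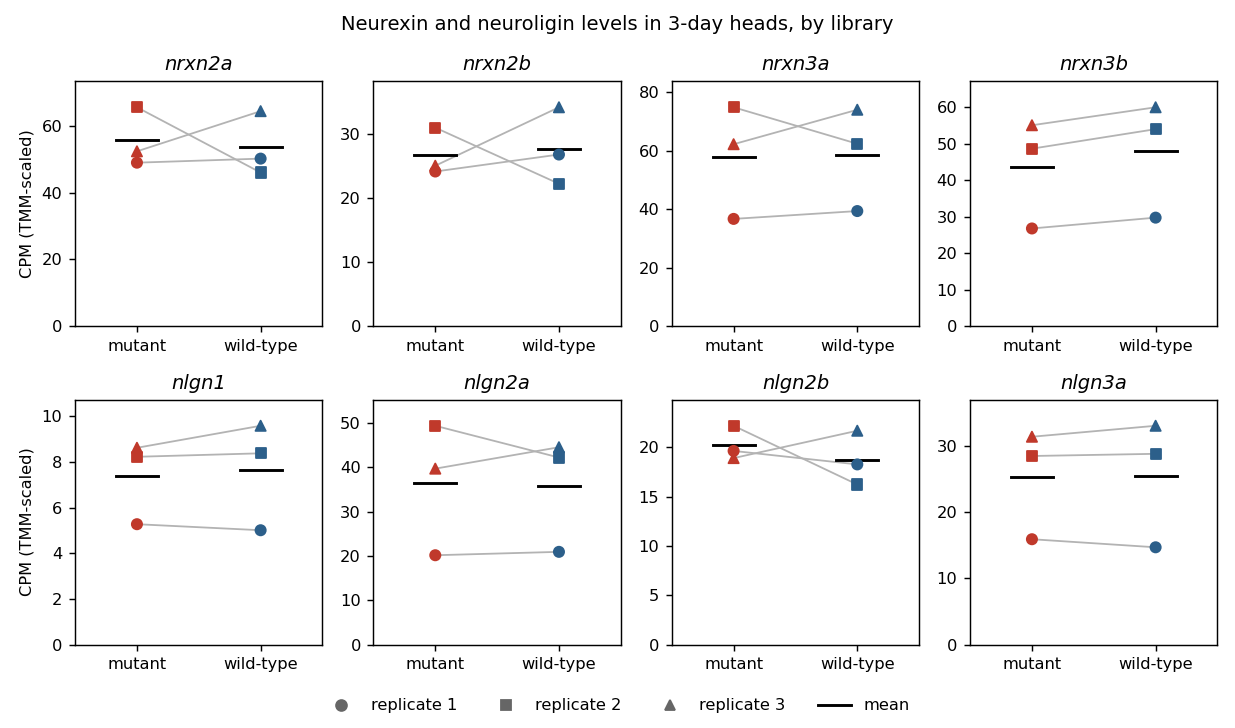
CPM scaled with TMM factors (y axis, from 0) of the 8 genes in mutant (red, left) and wild-type (blue, right) libraries. Each point is 1 library, grey lines join libraries with the same replicate number and black bars are means of 3. The groups overlap for every gene, and replicate 1 is the lowest in both genotypes for 5 of the 8.

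Among the neurexins, both nrxn3 copies were low in replicate 1 in both genotypes. Nrxn3a (ENSDARG00000043746) measured 36.6, 74.8 and 62.2 CPM in the mutant, against 39.3, 62.3 and 74.0 CPM in wild-type, so the highest library of each genotype carried a different replicate number. Its groups overlapped.

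Nrxn3b (ENSDARG00000062693) was the one member that was lower in the mutant library of every pair. It measured 26.7, 48.6 and 55.0 CPM in mutant replicates 1, 2 and 3, against 29.7, 53.9 and 59.9 CPM in the wild-type replicates. The within-pair log2 differences were -0.15, -0.15 and -0.12, with a mean of -0.14 ± 0.016 (SD, n = 3 pairs). Of all tested genes, 13.8% were lower in the mutant in all 3 pairs, so 1 of 8 members is not above that background. No member was higher in all 3 pairs, against 13.1% of all tested genes. With the replicate number as a block, edgeR gave nrxn3b a log2 fold change of -0.14 (SE 0.041, 95% interval -0.24 to -0.044) with an unadjusted p of 0.0113 and an adjusted p of 0.939. An unadjusted p under 0.05 in that fit was reached by 4.6% of all tested genes. The blocked edgeR estimate was -0.13 without the replicate 1 pair (unadjusted p 0.0765), -0.13 without the replicate 2 pair (unadjusted p 0.0261) and -0.15 without the replicate 3 pair (unadjusted p 0.0492). DESeq2 with the block, which called 0.0727% of all tested genes (18), gave nrxn3b a log2 fold change of -0.14 (SE 0.081) and an adjusted p of 1. Its 95% interval in that DESeq2 fit, -0.29 to 0.021, included 0, with an unadjusted p of 0.0889. Photoreceptor markers had mostly negative estimates in the blocked edgeR fit, 15 of 16, with a median of -0.17 and 7 of 16 (43.8%) at an unadjusted p under 0.05, none of which passed after adjustment. Their summed level was 2075, 3168 and 4938 CPM in mutant replicates 1, 2 and 3, against 2204, 4186 and 5353 CPM in wild-type, and the part of photoreceptors in the nrxn3b difference was not tested.

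The nrxn2 copies and nlgn2b differed between the genotypes in opposite directions in pairs 2 and 3. Nrxn2a (ENSDARG00000061454) measured 49.1, 65.7 and 52.5 CPM in mutant replicates 1, 2 and 3, against 50.3, 46.1 and 64.5 CPM in wild-type. Nrxn2b (ENSDARG00000063150) measured 24.2, 31.0 and 25.1 CPM in the mutant, against 26.8, 22.3 and 34.2 CPM in wild-type. For both copies the highest libraries were mutant replicate 2 and wild-type replicate 3, and wild-type replicate 1 was above wild-type replicate 2. The within-pair log2 differences were -0.035, 0.51 and -0.30 for nrxn2a and -0.15, 0.48 and -0.45 for nrxn2b. These are the widest swings among the neurexins, and the blocked edgeR intervals were accordingly broad, from -0.38 to 0.50 for nrxn2a and from -0.54 to 0.46 for nrxn2b.

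The neuroligins likewise showed no difference between the genotypes beyond the spread of the libraries. Nlgn1 (ENSDARG00000077710) measured 5.28, 8.23 and 8.63 CPM in mutant replicates 1, 2 and 3, against 5.01, 8.38 and 9.59 CPM in wild-type. Nlgn3a (ENSDARG00000104786) measured 15.9, 28.5 and 31.4 CPM in the mutant, against 14.7, 28.8 and 33.1 CPM in wild-type. In both genes the mutant library was slightly the higher in pair 1 and slightly the lower in pairs 2 and 3. The RefSeq gene table lists each of the names nlgn3a and nlgn3b as a synonym of the other copy, so the naming of these copies differs between sources, and the deposited names are used here. Nlgn2a (ENSDARG00000077329) measured 20.1, 49.4 and 39.7 CPM in the mutant, against 20.9, 42.2 and 44.5 CPM in wild-type. Nlgn2b (ENSDARG00000079251) measured 19.6, 22.2 and 18.9 CPM in the mutant, against 18.3, 16.2 and 21.7 CPM in wild-type. Nlgn2b had the largest positive log2 fold change among the members with genotype alone, 0.11 (SE 0.15, edgeR adjusted p 1), and its pair differences of 0.10, 0.45 and -0.20 did not share a sign.

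How large a difference these data leave possible for each gene depends on whether the replicate block is used. Mutant and wild-type libraries with the same number departed from their group means in similar ways. Their correlations across all tested genes were 0.863, 0.579 and 0.744, so the numbers were treated as pairs. Correlations were also positive for mutant replicate 2 with wild-type replicate 3 (0.365) and mutant replicate 3 with wild-type replicate 2 (0.418). The members' summed level in mutant replicate 2, 328.4 CPM, was nearer to wild-type replicate 3 (341.6 CPM) than to wild-type replicate 2 (280.3 CPM). Mutant replicate 3 (293.4 CPM) was nearer to wild-type replicate 2. The pairing thus came from the tested counts, and the blocked intervals hold only if it is right. With the block, the SE of the members' log2 fold changes ranged from 0.041 to 0.19, against 0.15 to 0.41 without it, and again 0% of all tested genes passed, with a smallest adjusted p among the members of 0.939. The mutated gene srrm4 stood at 0.18 (SE 0.062) in this edgeR fit, with an unadjusted p of 0.0255 and an adjusted p of 0.939. It was higher in the mutant library of each pair, by 0.36, 0.13 and 0.073, an order shown by 13.1% of all tested genes. Nlgn3a was the most narrowly bounded neuroligin, at 0.0011 (SE 0.055), with a 95% interval for the fold of mutant over wild-type of 0.915 to 1.09. The fold interval was 0.813 to 1.18 for nrxn3a, 0.850 to 1.104 for nlgn1 and 0.878 to 1.15 for nlgn2a. It was widest for nrxn2b, 0.686 to 1.38, followed by nrxn2a, 0.769 to 1.41, and nlgn2b, 0.861 to 1.37. A 2-fold change of any member lay outside its interval in the blocked fit, while a change of the size estimated for nrxn3b lay inside the interval of every other member but nlgn3a. With genotype alone, the fold interval of nlgn2a, 0.510 to 2.02, included a 2-fold rise. That of nrxn3b, 0.497 to 1.66, included a 2-fold fall, and those of the other members included neither.

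**Figure D2:**
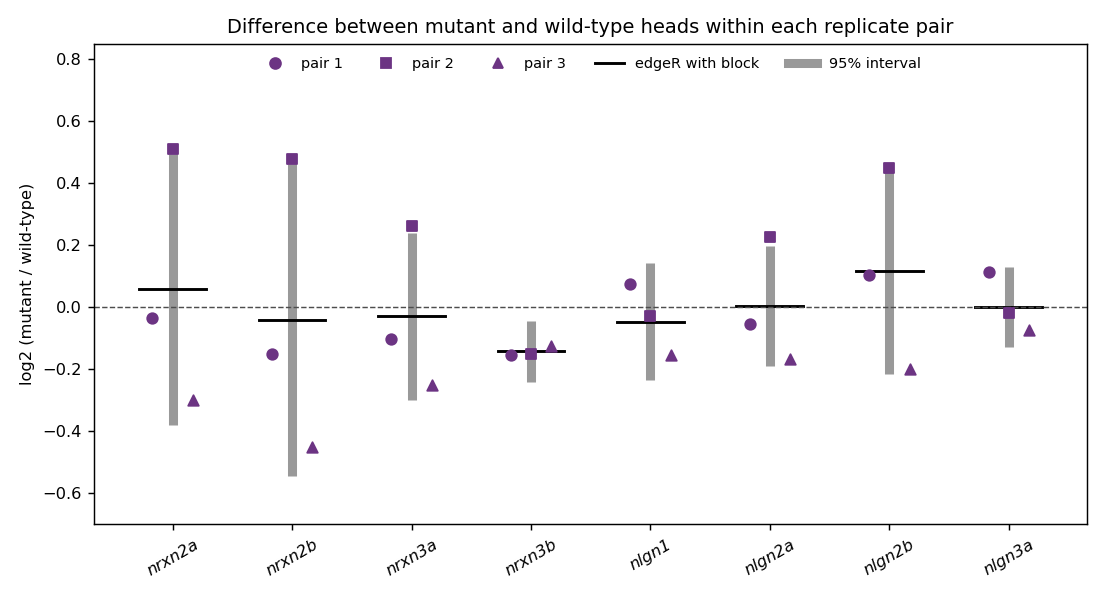
Log2 ratio of mutant to wild-type CPM (y axis) within replicate pair 1 (circles), 2 (squares) and 3 (triangles) for each gene, with the edgeR estimate under the replicate block (black bar) and its 95% interval (grey). The 3 points of nrxn3b lie together between -0.15 and -0.12, while those of nrxn2a run from -0.30 to 0.51 and those of nrxn2b from -0.45 to 0.48.

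Opposite signs in pairs 2 and 3 were shared by several members. The mutant library was the higher of pair 2 and the lower of pair 3 for 5 of 8 members (nrxn2a, nrxn2b, nrxn3a, nlgn2a and nlgn2b), where 26.1% of all tested genes had that order, and for no member was the order reversed (24.6% of all tested genes). The median pair difference of the members was -0.045, 0.24 and -0.18 for pairs 1, 2 and 3. The mutant library was likewise the higher of pair 2 and the lower of pair 3 for 10 of 20 neuronal markers. In the lists described below, so it was for 6 of 10 related genes, 13 of 32 synaptic partners, 22 of 41 scaffolds and 23 of 46 other adhesion genes. The reverse order was shown by 1, 4, 2 and 3 genes of these lists. Of the 19 skeletal muscle rows, 17 had the reverse order, and their sum was 21420 CPM in mutant replicate 2 against 25900 CPM in wild-type replicate 2, and 16490 CPM in mutant replicate 3 against 15080 CPM in wild-type replicate 3. Without the replicate 2 pair, the blocked edgeR log2 fold change was -0.31 (95% interval -0.48 to -0.14) for nrxn2b and -0.18 (-0.30 to -0.058) for nrxn3a. In that fit 4 of 8 members had an unadjusted p under 0.05, against 6.57% of all genes tested, in either direction. They were the 4 neurexins described here, all with a lower estimate, and their smallest adjusted p was 0.471. The pair left out is the one in which nrxn2a, nrxn2b and nrxn3a were higher in the mutant, so lower estimates without it follow from that choice. Without the replicate 3 pair 2 members had an unadjusted p under 0.05, nrxn3b and, higher in the mutant at 0.29, nlgn2b, against 4.72% of genes tested, and without the replicate 1 pair 0 did, against 2.63%. The part of muscle or neuronal tissue share in the members' pair differences was not tested. Relative to the summed neuronal markers, the pair 2 and pair 3 differences were 0.44 and -0.21 for nrxn2a, 0.41 and -0.36 for nrxn2b and 0.38 and -0.11 for nlgn2b. For nlgn2a they were 0.16 and -0.078 on that scale. The summed neuronal markers were 4689 CPM in mutant and 4467 CPM in wild-type replicate 2, and 4699 and 4994 CPM in replicate 3. A sum this even within pairs could hardly reverse the signs of these genes, so their opposite signs on that scale test nothing about neuronal share.

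Replicate 1 was below both other libraries of its genotype, in both genotypes, for 5 of 8 members, against 37.7% of all tested genes. It was above both for no member, against 36% of all tested genes. Against the mean of replicates 2 and 3, all 8 members were lower in replicate 1 in both genotypes, as were 17 of 20 neuronal markers. In the lists described below, so were 10 of 10 related genes, 27 of 32 synaptic partners, 27 of 41 scaffolds and 38 of 46 other adhesion genes. The share of all tested genes lower than that mean in both genotypes was not computed, so these counts have no background to be read against. The members' log2 ratio of replicate 1 to that mean ranged from -1.14 to -0.065 in the mutant, with a median of -0.79, and from -1.07 to -0.053 in wild-type, with a median of -0.82. The medians over all tested genes were -0.014 in both genotypes on the log2(CPM + 0.5) scale. Nlgn2a had the strongest difference in the mutant, 2.21-fold lower in replicate 1 (2.07-fold in wild-type), followed by nrxn3b at 1.94-fold (1.92-fold in wild-type). Nlgn2a was the 1 member more than 2-fold lower in both genotypes on the log2(CPM + 0.5) scale, against 3% of all tested genes.

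The nrxn2 copies and nlgn2b showed little of the replicate 1 difference. Their log2 ratios were -0.27 in the mutant and -0.14 in wild-type for nrxn2a, -0.21 and -0.074 for nrxn2b, and -0.065 and -0.053 for nlgn2b, whereas the other 5 members ranged from 1.598-fold to 2.21-fold lower in replicate 1. On the log2(CPM + 0.5) scale, the median of the neuronal markers was -0.72 in the mutant and -0.80 in wild-type, that of the photoreceptor markers was -0.86 and -1.003, and that of the glial markers was -0.041 and -0.18. Muscle markers stood at 2.08 and 2.11, epidermal markers at 0.67 and 0.70 and posterior hox genes at 1.90 and 2.38. The glial list was split, with 6 of 11 markers lower and 5 higher in replicate 1 in both genotypes. Set against the summed neuronal markers, nrxn3b was close to even in replicate 1, at 0.042 in the mutant and 0.044 in wild-type, as was nlgn2a at -0.14 and -0.071. On that same scale nrxn2a was higher in replicate 1 by 0.74 in the mutant and 0.86 in wild-type, nrxn2b by 0.79 and 0.94, and nlgn2b by 0.93 and 0.94. No test was run on these replicate 1 differences, which do not separate the genotypes.

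**Figure D3:**
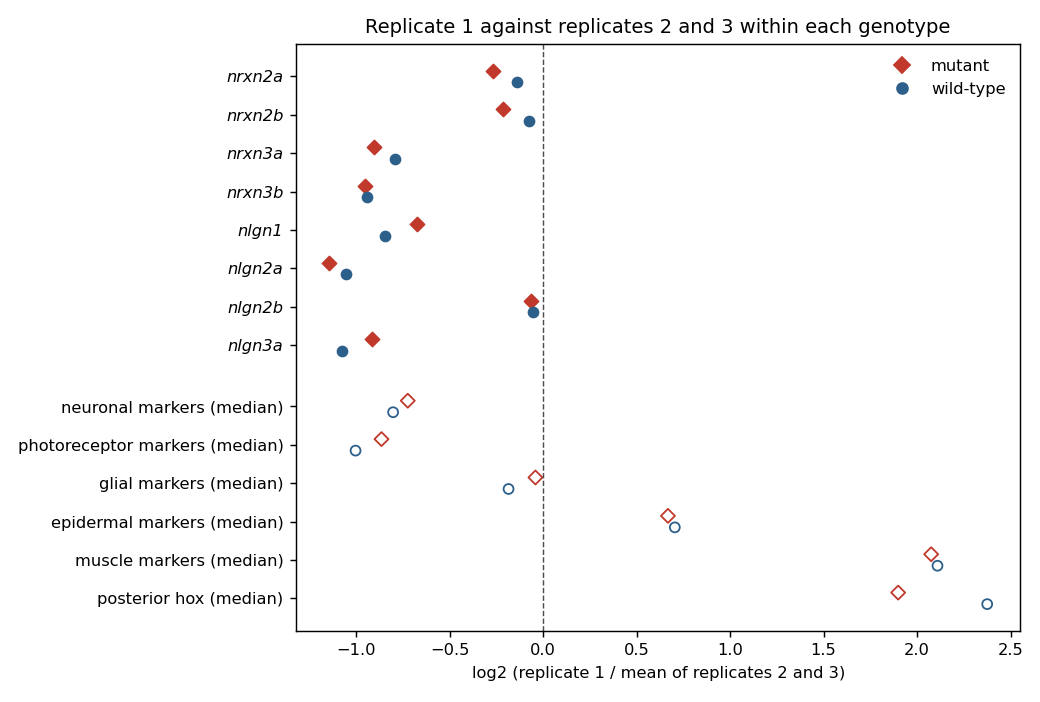
Log2 ratio of the CPM in replicate 1 to the mean CPM of replicates 2 and 3 (x axis), in mutant (red diamonds) and wild-type (blue circles) heads, for each gene (filled) and as medians of marker lists on log2(CPM + 0.5) values (open). The other 5 members lie between -1.14 and -0.68, around the neuronal and photoreceptor medians, while nrxn2a, nrxn2b and nlgn2b lie between -0.27 and -0.053.

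Ratios between the duplicated copies of a gene, which do not depend on library scaling, overlapped between the genotypes for nrxn2, nrxn3 and nlgn2. The log2 ratio of nrxn3a to nrxn3b counts averaged 0.42 ± 0.23 in mutant and 0.31 ± 0.098 in wild-type libraries (SD, n = 3 each). The nrxn2a to nrxn2b ratio was higher in the mutant library of each pair, by 0.12, 0.032 and 0.15. It was 1.02, 1.08 and 1.07 in mutant replicates 1, 2 and 3 and 0.91, 1.05 and 0.91 in the wild-type replicates, so the groups overlapped at wild-type replicate 2, with an exact permutation p of 0.2 (2-sided, where 3 against 3 libraries allow no p below 0.1). Exchanging libraries within pairs gave an exact permutation p of 0.25, the smallest that 3 pairs allow, so neither form of the test could reach 0.05. The exact permutation p was 0.5 for nrxn3 and 0.7 for nlgn2, and within pairs it was 0.75 and 0.5. The nlgn2a to nlgn2b ratio followed the replicate number. It was 0.037, 1.15 and 1.07 in mutant replicates 1, 2 and 3, against 0.19, 1.38 and 1.04 in wild-type, so replicate 1 was lower by 1.07 in the mutant and by 1.01 in wild-type. The ratio of nlgn4xa to nlgn4xb, neuroligins outside the named members, was likewise lower in replicate 1, by 0.63 in the mutant and by 0.72 in wild-type.

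**Figure D4:**
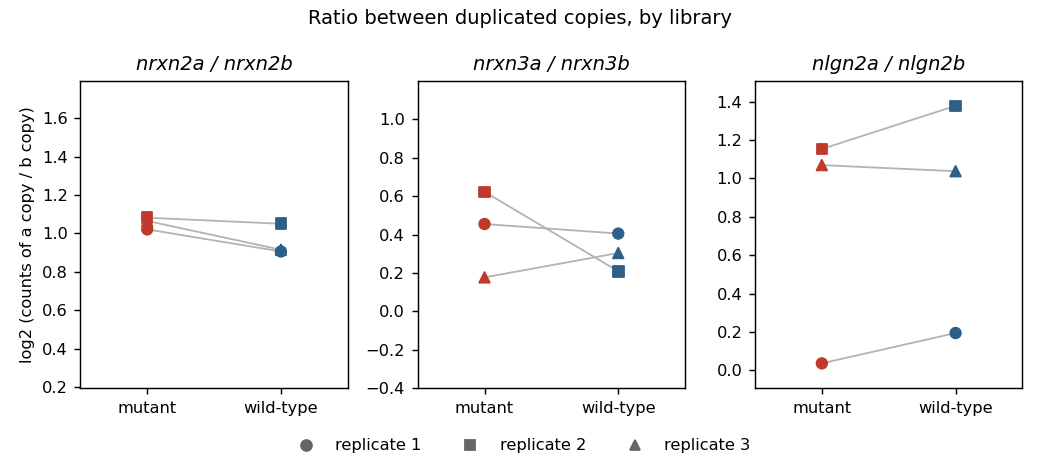
Log2 ratio of counts of the a copy to the b copy (y axis, each panel spanning the same height) in mutant (red, left) and wild-type (blue, right) libraries, with replicate 1 as circles, 2 as squares and 3 as triangles. Both replicate 1 libraries stand apart for nlgn2, at 0.037 and 0.19, and the groups overlap in every panel.

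The neuroligins outside the named members, nlgn3b, nlgn4xa and nlgn4xb, had blocked edgeR log2 fold changes between -0.027 and 0.0026. Nlgn3b measured 38.4, 73.1 and 61.2 CPM in mutant replicates 1, 2 and 3, against 40.0, 60.5 and 71.3 CPM in wild-type. Nlgn4xa measured 21.6, 43.8 and 45.1 CPM in the mutant, against 21.8, 44.5 and 46.5 CPM in wild-type, and its blocked edgeR log2 fold change was -0.027 (SE 0.043, adjusted p 0.963). Nlgn4xb measured 5.32, 7.15 and 6.99 CPM in the mutant, against 5.48, 6.48 and 7.47 CPM in wild-type. Among the contactin-associated proteins, which share the neurexin domain plan, cntnap1, a protein of the paranodal axon-glia junction, had the smallest p. It measured 7.60, 9.49 and 12.6 CPM in the mutant, against 7.78, 12.5 and 15.01 CPM in wild-type, with a blocked log2 fold change of -0.24 (SE 0.082, edgeR adjusted p 0.939). Cntnap2b stood at 0.055 (SE 0.11) and cntnap5a at -0.036 (SE 0.077) in that fit. Of the 10 tested genes in this related group, 4 had a positive and 6 a negative estimate, with a median of -0.0036 against -0.0010 over all tested genes, and 0 passed the test.

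Of 32 tested genes listed as synaptic partners of neurexins or neuroligins, 0 passed the edgeR test with or without the block. In the blocked fit 12 had positive and 20 negative estimates, with a median of -0.026. An unadjusted p under 0.05 was reached by 2 (6.25%), both lower, against 4.6% of all tested genes in either direction. Those were nxph2a, a neurexophilin, one of a family of secreted alpha-neurexin ligands, and lrrtm1, a postsynaptic neurexin receptor. Nxph2a measured 4.32, 6.08 and 7.46 CPM in mutant replicates 1, 2 and 3, against 5.09, 7.13 and 8.84 CPM in wild-type, with a blocked log2 fold change of -0.24 (SE 0.076, edgeR adjusted p 0.939). Lrrtm1 measured 26.0, 46.1 and 49.2 CPM in the mutant, against 28.2, 49.0 and 54.1 CPM in wild-type, with -0.11 (SE 0.042, edgeR adjusted p 0.939). Both were lower in each pair, as was nrxn3b, an order shown by 13.8% of all tested genes. The secreted C1q-like gene c1ql3a stood at -0.24 (SE 0.13) and the calsyntenin gene clstn3 at -0.076 (SE 0.040) in the same fit, and neither reached an unadjusted p of 0.05.

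Of 41 tested genes for cytoplasmic scaffolds of these proteins, 0 passed. In the blocked fit 0 had an unadjusted p under 0.05, against 4.6% of all tested genes. There 22 estimates were positive and 19 negative, with a median of 0.0042. Caska, a kinase-like scaffold that binds neurexin tails, measured 54.1, 52.2 and 54.1 CPM in mutant replicates 1, 2 and 3, against 56.8, 56.0 and 58.1 CPM in wild-type. Its groups did not overlap, and its blocked log2 fold change was -0.092 (SE 0.040, edgeR adjusted p 0.939). Magi3b, another membrane-associated scaffold, also did not overlap, at 6.27, 6.41 and 6.63 CPM in the mutant, against 7.13, 6.75 and 7.78 CPM in wild-type (-0.16, SE 0.078). Over all tested genes, 2.04% showed no overlap in either direction. Caska and magi3b are among 41 listed genes, so the separation is not read as a result about them. Lin7c, a partner of the Cask protein, stood at 0.074 (SE 0.037), and dlg4b (ENSDARG00000039385), a PSD-95 gene whose product binds neuroligin tails, at -0.090 (SE 0.046). A second row that shares the name dlg4b (ENSDARG00000095809) stood at 0.30 (SE 0.19), and reads could be split between the rows.

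Of 46 tested genes of other synaptic adhesion families, 0 passed, with 18 positive and 28 negative blocked estimates and a median of -0.027. Unadjusted p values under 0.05 were found for 3 of them (6.52%), all lower, against 4.6% of all tested genes in either direction. They were slitrk4 (-0.19, SE 0.046), lrfn4a (-0.20, SE 0.064) and slitrk5a (-0.16, SE 0.051), each with an edgeR adjusted p of 0.939. All encode leucine-rich repeat proteins of families that bind presynaptic receptor tyrosine phosphatases. Slitrk4 measured 13.3, 28.3 and 35.2 CPM in mutant replicates 1, 2 and 3, against 15.4, 32.4 and 39.2 CPM in wild-type, so each mutant library was the lower of its pair. That order was shown by 13.8% of all tested genes. Slitrk3b stood at -0.14 (SE 0.080).

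Outside the members, the genes whose profile over the 6 libraries was most like their mean profile were dpysl5b, atp2b2, ncam1a, kif1ab and rusc1. Likeness was the root mean square difference of centred log2 CPM over the 6 libraries, among 12592 genes with a mean of at least 10 CPM. It was 0.017 for dpysl5b, 0.033 for atp2b2, a plasma membrane calcium pump gene, 0.038 for ncam1a, a neural cell adhesion gene that is also on the list of other synaptic adhesion families, 0.042 for kif1ab, a kinesin gene, and 0.044 for rusc1. Dpysl5b, of the collapsin response mediator family, measured 53.4, 89.0 and 80.4 CPM in mutant replicates 1, 2 and 3, against 53.6, 75.6 and 93.0 CPM in wild-type. The members themselves lay between 0.10 (nlgn1) and 0.28 (nlgn2b) from their own mean profile.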

How the data were processed

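The authors deposited a table of raw counts by Ensembl gene ID, and a second table with a normalized signal, the counts divided by 1 size factor per library (largest departure 0.173), which entered no test. The submitters' processing notes name the GRCz11 build, STAR 2.7.3, Subread's featureCounts 1.6.4 and DESeq2. Neither strand setting nor annotation release is given in the sources used here. Per the labels' protocols, RNA came from 1 of 2 kits; which library had which is not given.

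Counts were fitted in edgeR 4.0.16 (R 4.3.3): TMM factors, filterByExpr by genotype (24765 genes kept), robust quasi-likelihood F test, 2-sided, Benjamini-Hochberg adjustment over all genes tested, threshold 0.05. SE and intervals come from that F test. The same fit with a replicate block, DESeq2 1.42.0, limma-voom (limma 3.58.1), other scalings and filters, and fits without each library or pair were alternatives. The edgeR fits were also run on counts simulated in pairs with planted 2-fold changes, a setting that does not bear on changes as small as the members' estimates. Replicate numbers come from the labels, which state no pairing; they were taken as pairs from the correlations given above, and mutant replicate 3 with wild-type replicate 2 (0.418) and mutant replicate 2 with wild-type replicate 3 (0.365) were also positive. No libraries were duplicates (chi-square per gene at least 4.92).

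Members and lists were chosen with earlier results of these data known. Of the 10 members chosen by name, 2 are not reported here. Named genes are the other 8, srrm4, the 4 genes of each list with the smallest blocked p, and the 5 nearest profiles; nlgn3b, nlgn4xb, the second dlg4b row and NRXN2 were added after their values were seen. Of list names, 10 of 13 related, 31 of 39 synaptic partner, 39 of 44 scaffold and 45 of 54 other adhesion names matched a deposited name. Figures were drawn with matplotlib 3.10.9.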

Additional observations from a re-analysis of the deposited data

How the results depend on the processing

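No member and no listed partner gene passed the threshold under any alternative run. Over all genes, 0 passed with genotype alone (70 at an unadjusted edgeR p under 0.05, and 0 called by DESeq2 and limma-voom), 0 with the replicate block, 18 in DESeq2 with the block, 0 with 1 library left out, and 0, 2 and 0 under the block without the replicate 1, 2 or 3 pair. The block changed no call of a member. The members' median log2 fold change of -0.015 ranged from -0.24 (without wild-type replicate 1) to 0.20 (without wild-type replicate 3). Both ends of that range came from fits with 1 library left out. Those fits had no block, so the replicate numbers were unequal between the genotypes, and the part of this in the range was not tested. With library totals as the only scaling the replicate 1 ratio of the members was -1.14, against -0.82 with TMM.

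The signs of estimates this close to 0 were not stable: 14 of 112 member values changed sign in the alternatives other than leaving out 1 library, and 18 of 48 with 1 library left out. The 112 include fits that hardly move an estimate. EdgeR without robust dispersion left every member's log2 fold change unchanged, so 14 of 112 is no measure of how stable the signs were. Nlgn3a (-0.014 with genotype alone) was 0.0011 with the edgeR replicate block, 0.020 in limma-voom without the block and 0.0079 in DESeq2 with the block. In limma-voom with the block it stayed negative, at -0.017. With 1 library left out, log2 fold changes ranged from -0.078 to 0.21 for nrxn2a, -0.19 to 0.13 for nrxn2b, -0.24 to 0.23 for nrxn3a, -0.39 to 0.11 for nrxn3b, -0.28 to 0.14 for nlgn1, -0.26 to 0.31 for nlgn2a, 0.020 to 0.23 for nlgn2b and -0.29 to 0.23 for nlgn3a. Some blocked estimates with 1 pair left out had the sign opposite to that with genotype alone. Without the replicate 1 pair they were 0.014 for nrxn2b and 0.0083 for nrxn3a. Without the replicate 2 pair they were -0.17 for nrxn2a, -0.12 for nlgn2a, -0.060 for nlgn2b and 0.0055 for nlgn3a. Without the replicate 3 pair they were 0.18 for nrxn2b, 0.091 for nrxn3a, 0.021 for nlgn1 and 0.046 for nlgn3a. Among the blocked edgeR fits, nlgn3a changed sign against its estimate with all pairs, 0.0011, only without the replicate 1 pair, to -0.043. Without the replicate 2 pair the largest move that kept its sign was that of nrxn2b, to -0.31 against -0.040 with all pairs. Leaving out the replicate 1 pair without a block, chosen after the data had been seen, gave 0.0099 for nrxn3a.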

Other observations

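A further row of the count table carries the capitalized name NRXN2 (ENSDARG00000113112), which the naming rule does not include. It measured 13.5, 11.7 and 10.1 CPM in mutant replicates 1, 2 and 3, against 14.96, 8.14 and 16.2 CPM in wild-type. Its pair differences of -0.15, 0.53 and -0.69 had the signs of those of nrxn2a and nrxn2b, and its blocked log2 fold change was -0.11 (SE 0.24, edgeR adjusted p 0.972). Unlike the named members it was higher in replicate 1 than in the mean of replicates 2 and 3, by a log2 ratio of 0.31 in the mutant and 0.30 in wild-type. In wild-type, however, replicate 3 was above replicate 1. How reads of this row and of the nrxn2 copies were shared in counting was not stated, so the levels of all 3 are uncertain to that extent.

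The genes whose profile was most like that of nrxn2a, a search chosen after its values were seen, were CAMSAP3, a microtubule minus-end binding protein gene, the histone methyltransferase gene setd1ba, the insulin receptor substrate gene irs2b, prr12b and nav1b, at root mean square differences of 0.046 to 0.060. CAMSAP3 measured 35.1, 46.0 and 35.5 CPM in mutant replicates 1, 2 and 3, against 33.9, 30.9 and 41.8 CPM in wild-type.

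None of the 8 members lies on the chromosome of srrm4 in the RefSeq annotation of the GRCz12tu assembly, in which all 8 have a chromosome.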
